A study of Danio rerio with 10 samples.

Results

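The transcripts of 4 genes that stand at either end of estrogen action were followed in adult male zebrafish: esr1, which encodes the estrogen receptor alpha, cyp19a1a and cyp19a1b, which encode the gonadal and the brain form of aromatase, and star, which encodes the steroidogenic acute regulatory protein. They were chosen by their gene symbols in the array annotation, and each was represented by 1 probe, so that they make up 4 of the 16416 probes and 4 of the 5356 genes named by a single symbol. The probe identifiers were 5269931 for esr1, 5269755 for cyp19a1a, 5270054 for cyp19a1b and 5269893 for star. All 4 were tested, since each had values in at least 2 fish of every group.

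Estrogens enter cells and bind nuclear receptors, which pair up on DNA and change the transcription of target genes. Among the best known targets in fish are the yolk precursors made in the liver, the receptor gene esr1 itself and, in radial glia of the brain, cyp19a1b. Steroid hormones are made from cholesterol, which star moves into mitochondria of gonadal and interrenal cells, and aromatase catalyses the last step, from androgen to estrogen.

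RNA of individual whole fish was hybridized to a 2-colour oligonucleotide array against a common reference. There were 4 control fish kept in water with 0.01% ethanol, 3 fish exposed to 17β-estradiol (E2), and 3 fish exposed to E2 together with 1 µM ICI (fulvestrant), an estrogen receptor antagonist (E2+ICI), all for 96 h and all in the same ethanol vehicle. E2 was at 10 nM by the protocol, while the sample titles give 10 mM. The fish counted here are those whose arrays were kept, as the methods give 4 replicates for each treatment. There was no group with ICI alone. Each value is the log2 of the ratio of fish to reference, so that a difference of 1 is a 2-fold change. The direction of the ratio is likely rather than settled, as it rests on the stated dyes (fish in Cy3, reference in Cy5) and on the study's naming of raised and lowered genes. RNA of a whole fish mixes all organs, so that fewer cells of a type and less RNA per cell cannot be told apart in any value given here. Nothing states whether the fish of a group shared a tank, and p-values rest on the spread between these fish. In the main tests this spread was pooled over the 3 groups, so that E2+ICI against E2 also carried the spread of the control fish.

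The 10 arrays were centred alike, with medians from -0.02 to 0.02, but the control arrays were wider, with an SD over all probes of 0.80 to 1.07 against 0.46 to 0.51 for the E2 and 0.37 to 0.56 for the E2+ICI arrays. Control replicate 4 was the widest. Over all probes, arrays correlated at r = 0.68 to 0.90 among controls, 0.70 to 0.82 among E2 and 0.65 to 0.79 among E2+ICI fish. Control and E2 arrays correlated only at -0.08 to 0.14. The E2+ICI arrays correlated at 0.28 to 0.69 with control and at 0.11 to 0.38 with E2 arrays. The E2 differences of single genes below thus stand beside a change over the whole array, whose cause was not tested. In the fit over 16208 probes (limma, moderated statistics, Benjamini-Hochberg adjustment over all probes, called at an adjusted p under 0.05) 35.6% of the probes passed when E2 was set against control, 12% passed for the fish with ICI against control, and 5.42% passed when the treated groups were set against each other. Groups did not overlap in 43.1%, 25% and 42.5% of the probes in the same order. The reference is described as liver RNA of males and females. All 10 oocyte probes tested lay far below it in the control fish, with a median log2 ratio of -4.83 to -3.88, and were higher with E2 (0.15 to 0.41) and with E2+ICI (-1.37 to -0.20), although every fish is labelled male. Their part in the results below was not tested.

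Of the 4 genes, esr1 rose and star fell in E2 fish, and neither aromatase gene passed. In E2+ICI fish both esr1 and star had means between those of the control and the E2 fish. For E2, 1 of the 4 was thus higher than control, beside 19.2% of all probes, and 1 lower, beside 16.5%. For E2+ICI 0 of the 4 were higher than control (esr1 had an unadjusted p of 0.0303), beside 8.92%, and 1, star, was lower, beside 3.04%. Of the 4 genes 0 passed when E2+ICI was set against E2, beside 2.88% of all probes higher and 2.54% lower, though the unadjusted p was below 0.05 for both esr1 and star. Over the 3 groups together (moderated F test of limma) esr1 and star passed, with adjusted p = 0.00177 and 0.00125, as did 30% of all probes. The plot of the 4 genes by fish shows each value.

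**Figure D1:**
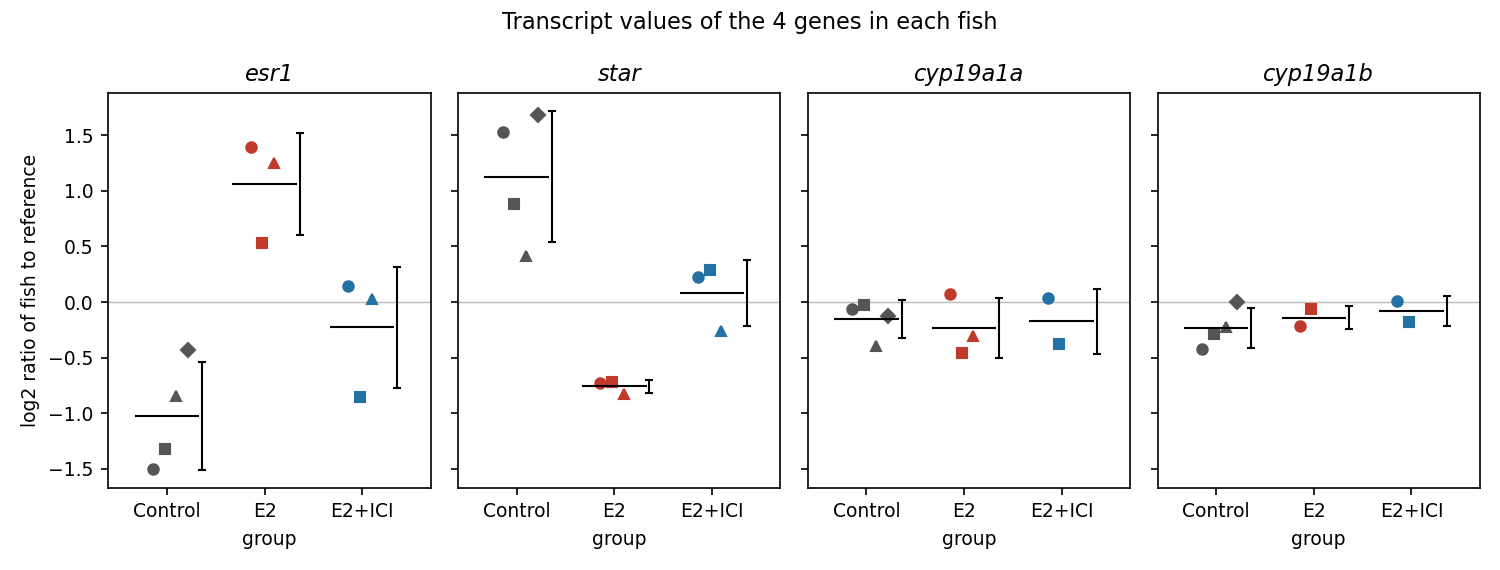
Log2 ratio of fish to reference (vertical axis) of the 4 genes in each fish of the 3 groups (horizontal axis); marker shapes stand for the replicate number (circle 1, square 2, triangle 3, diamond 4), horizontal lines for group means and vertical bars for 1 SD. For esr1 the 3 E2 fish lie above all others, for star they lie below all others, and for cyp19a1a and cyp19a1b the groups overlap.

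The receptor gene esr1 was lowest in control and highest in E2 fish. Its log2 ratios in control fish 1 to 4 were -1.50, -1.33, -0.84 and -0.43. In the E2 fish they were 1.39, 0.54 and 1.25, and in the E2+ICI fish 0.15, -0.86 and 0.03. All 3 E2 fish were above every control and every E2+ICI fish, while E2+ICI replicate 2 lay among the controls. The array of that fish had the most missing values of all arrays (912). Within its group it had the widest spread over all probes (SD 0.56) and the lowest median of the oocyte probes (-1.37). Their part in its esr1 value was not tested. Of all probes 43.1% did not overlap between E2 and control, and 42.5% between E2+ICI and E2. Control fish averaged -1.03 ± 0.48 (SD, n = 4), E2 fish 1.06 ± 0.46 (n = 3) and E2+ICI fish -0.23 ± 0.55 (n = 3). In E2 fish esr1 rose by 2.09 on the log2 scale (SE 0.32, 95% interval 1.38 to 2.80), a 4.25-fold change with adjusted p = 0.000509 (limma). This p was shared or undercut by 1348 of the 16208 probes.

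In E2+ICI against control the difference of esr1 was 0.80 (SE 0.32, interval 0.09 to 1.51, adjusted p = 0.139, limma), with overlapping groups. Against E2 it was -1.29 (SE 0.34, interval -2.04 to -0.53), a 2.44-fold difference. The adjusted p of 0.0539 missed the threshold (unadjusted p = 0.00318, limma). Of the log2 distance from the control to the E2 mean, 43.8%, 91.9% and 49.5% was absent in E2+ICI fish 1 to 3. The call for E2+ICI against E2 was made in 7 of 21 alternative settings. Among them were equal spread over the arrays (-1.50, adjusted p = 0.00784) and the fit without control replicate 4 (-1.29, adjusted p = 0.0164). It was not made without E2 replicate 1 (-1.12, adjusted p = 0.183), E2 replicate 3 (-1.19, 0.177) or E2+ICI replicate 2 (-0.97, 0.205, limma). Without control replicate 4, E2+ICI also passed against control (1.00, adjusted p = 0.0414, limma).

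The other estrogen receptor genes on the array gave smaller differences. For esr2a, a beta-type receptor gene, the control mean was 0.01 ± 0.12, the E2 mean -0.18 ± 0.14 and the E2+ICI mean 0.21 ± 0.18, and E2 against control gave -0.19 (SE 0.15, adjusted p = 0.353, limma). The other beta-type gene, esr2b, had 2 probes. Probe 5269668 gave 0.01 (SE 0.17, adjusted p = 0.979) and probe 5269764 gave 0.60 (SE 0.67, adjusted p = 0.528). The latter ran from -2.63 to 0.70 within the controls and from -1.46 to 0.80 within the E2 fish, a spread larger than its difference. The sign of both was not stable across settings. For pgr, the progesterone receptor gene, the difference was 0.09 (SE 0.18, adjusted p = 0.749, limma). None of these 4 probes passed in any of the 3 comparisons.

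Over the 9 probes of 6 estrogen and related steroid receptor genes with a probe, of 13 genes listed, 2 were higher and 0 lower in E2 fish, 1 was higher in E2+ICI fish, and none passed between E2+ICI and E2. Of all probes 19.2% were higher and 16.5% lower in E2 fish, 8.92% were higher in E2+ICI fish, and 5.42% passed between E2+ICI and E2. The median difference was 0.09, 0.19 and -0.24 in this order, where the median of all probes was -0.07, 0.01 and 0.03. Besides esr1 the probe that passed belonged to nr3c1, the glucocorticoid receptor gene, whose 3 probes disagreed. Probe 5279858 rose by 4.94 (SE 0.36, adjusted p = 2.96e-06, limma) in E2 and by 4.08 (SE 0.36, adjusted p = 3.55e-05) in E2+ICI fish, but 4 of its 6 values in treated fish were the value that its array repeats for many probes. The others gave -0.58 and -0.17 for E2 and did not pass. Without control replicate 4 the counts of calls were 3, 2 and 2, and of all probes 44.0%, 15.1% and 16.6% then passed.

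The gene star ran the other way. Its log2 ratios in control fish 1 to 4 were 1.53, 0.89, 0.41 and 1.68. The E2 fish gave -0.73, -0.72 and -0.83, and the E2+ICI fish 0.23, 0.28 and -0.26. The 3 groups did not overlap in any pairing, with control highest, E2+ICI between and E2 lowest. Of all probes, 43.1% likewise separated E2 from control fish, 25% separated E2+ICI from control fish, and 42.5% separated the treated groups from each other. The E2 fish lay within 0.11 of each other, while the controls spanned 1.27. Control fish averaged 1.13 ± 0.59 (SD, n = 4), E2 fish -0.76 ± 0.06 (n = 3) and E2+ICI fish 0.08 ± 0.30 (n = 3).

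In E2 fish star fell by 1.89 on the log2 scale (SE 0.28, 95% interval -2.50 to -1.28), a 3.70-fold change with adjusted p = 0.000374 (limma). In E2+ICI fish it fell by 1.05 against control (SE 0.28, interval -1.66 to -0.43), a 2.06-fold change with adjusted p = 0.032. Between E2+ICI and E2 the difference was 0.84 (SE 0.30, interval 0.19 to 1.50, adjusted p = 0.114, unadjusted p = 0.016, limma). Of the log2 distance from the control to the E2 mean, 52.2%, 55.3% and 26.5% was absent in E2+ICI fish 1 to 3. The call for E2+ICI against control was lost with equal spread over the arrays (-0.73, adjusted p = 0.0677) and without any of control replicate 1 (-0.91, adjusted p = 0.0685), E2 replicates 1 to 3 (adjusted p = 0.0525, 0.0518 and 0.0542), E2+ICI replicate 1 (-1.12, adjusted p = 0.0779) or E2+ICI replicate 3 (-0.87, adjusted p = 0.163). Without control replicate 4 star passed in all 3 comparisons (-1.70, -0.86 and 0.84, adjusted p = 0.000232, 0.0369 and 0.0403, limma). In that fit 44.0%, 15.1% and 16.6% of all probes passed in the same order.

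The aromatase genes gave the smallest differences of the 4 genes. For cyp19a1a, the form known from the ovary and testis, the control fish had log2 ratios of -0.06, -0.02, -0.40 and -0.13, the E2 fish 0.07, -0.46 and -0.31, and the E2+ICI fish 0.03 and -0.38, with no value for E2+ICI replicate 3. High and low fish occurred in every group and all groups overlapped. The difference was -0.08 between E2 and control (95% interval -0.49 to 0.33, adjusted p = 0.769), -0.02 between E2+ICI and control (-0.48 to 0.44, adjusted p = 0.963) and 0.06 between E2+ICI and E2 (-0.43 to 0.54, adjusted p = 0.905, limma).

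For cyp19a1b, the form known from brain, the control fish had log2 ratios of -0.42, -0.29, -0.22 and 0.00, the E2 fish -0.22 and -0.07, and the E2+ICI fish 0.01 and -0.18, with replicate 3 missing in both treated groups. The groups overlapped here too. The difference was 0.09 between E2 and control (95% interval -0.31 to 0.49, adjusted p = 0.727), 0.15 between E2+ICI and control (-0.25 to 0.55, adjusted p = 0.65) and 0.06 between E2+ICI and E2 (-0.41 to 0.52, adjusted p = 0.90, limma). As ratios, the interval for E2 against control ran from 0.714 to 1.25 for cyp19a1a and from 0.807 to 1.41 for cyp19a1b. Before Lowess the E2 difference was -0.25 for cyp19a1a (adjusted p = 0.432) and 0.30 for cyp19a1b (adjusted p = 0.472), and those of E2+ICI from control were 0.10 and 0.48 (adjusted p = 0.836 and 0.36, limma).

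Over the 9 arrays with a value cyp19a1a spanned 0.53, and over 8 arrays cyp19a1b spanned 0.43, where the median span of all tested probes was 1.11. Only 8.3% and 3.6% of the probes had a smaller span, while for esr1 (2.90) and star (2.51) the shares were 95.7% and 93.5%. A span also holds differences between groups. Within groups the SD was 0.231 for cyp19a1a and 0.158 for cyp19a1b, beside a median of 0.259 over all tested probes. A smaller SD was found in 40.1% and 12.9% of probes, so that cyp19a1a was not unusually steady within groups. Before Lowess, with array medians at 0 and all 10 arrays measured, the spans were 0.647 and 1.21, beside a median of 1.46, and 3.6% and 34.2% of probes had a smaller one. The small span of cyp19a1b was thus not seen before Lowess. Spot intensities were not used here, so that a small true span and a signal near background cannot be told apart. Of the 16 brain and radial glia marker probes, 1 was higher and 1 lower in E2 fish, beside 19.2% and 16.5% of all probes. The median of the list was -0.26 beside -0.07 for all probes. The former was gap43, a growth cone gene, which rose by 4.47 (SE 0.42, adjusted p = 1.66e-05) and differed by -3.23 between E2+ICI and E2 (SE 0.45, adjusted p = 0.00407). The latter was probe 5269814 of gad1b, a GABA synthesis gene (-0.66, adjusted p = 0.0426, limma), whose other probe gave -0.47 and did not pass.

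The values before the Lowess step, which removes the dependence of the ratio on intensity within an array, were also deposited. With each array's median set to 0, esr1 was at -2.31, -1.79, -1.21 and -0.89 for control fish, at 1.50, 0.63 and 1.59 for E2 fish, and at 0.18, -1.05 and 0.03 for E2+ICI fish. The order of the groups was as after Lowess, and the control fish were moved most, upwards. For star the control fish were moved downwards, from 1.85, 1.04, 0.67 and 2.46 before the step. The share of the log2 E2 change that was absent in E2+ICI fish 1 to 3 was lower before Lowess for both genes. It was 38.0%, 82.0% and 43.4% for esr1, and 41.9%, 47.6% and 19.6% for star. The means were 54.4% and 36.4% before the step, and 61.7% and 44.7% after it. For cyp19a1b the largest shift of any of the 4 genes was in E2 replicate 1, from -1.87 as deposited before Lowess to -0.22. The 3 missing aromatase values were present before the step, at -0.18 for cyp19a1a in E2+ICI replicate 3, and at -0.20 and -0.49 for cyp19a1b in replicate 3 of E2 and of E2+ICI.

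**Figure D2:**
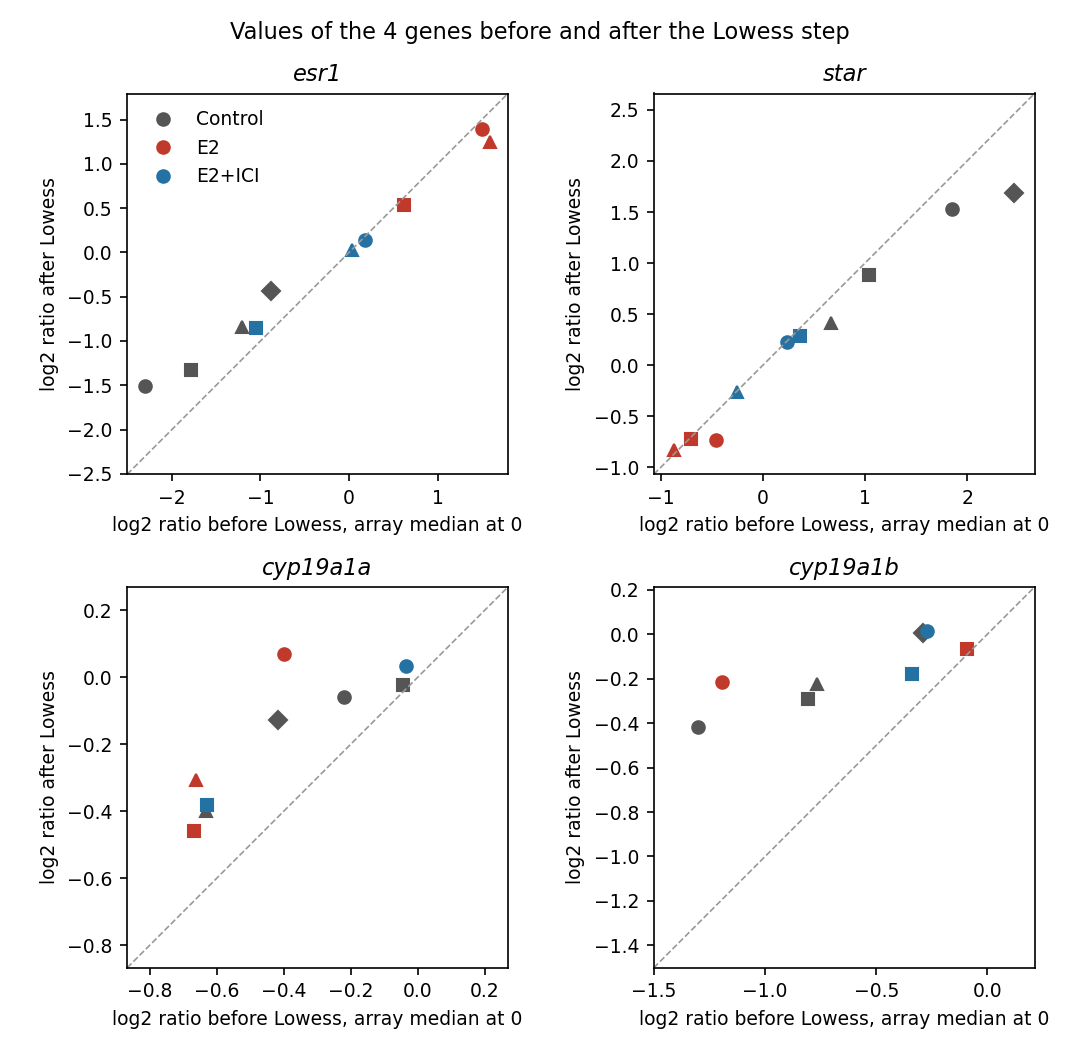
Log2 ratio after the Lowess step (vertical axis) against the log2 ratio before it with the array median at 0 (horizontal axis) for the 4 genes; each marker is a fish, its shape the replicate number (circle 1, square 2, triangle 3, diamond 4), and the dashed line marks equal values. For esr1 and star the groups keep their order, with control values drawn towards 0, while the cyp19a1a and cyp19a1b values mostly lie above the line.

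The list of steroid synthesis genes held star itself and both aromatase genes. Of 26 genes listed 8 had a probe, each tested. In E2 fish 3 were higher and 1, star, was lower, beside 19.2% and 16.5% of all probes. In E2+ICI against control cyp17a1 was higher and star lower, beside 8.92% and 3.04%. Between E2+ICI and E2 only cyp17a1 passed, lower in E2+ICI, beside 2.54% of all probes lower. The median difference was 0.20, 0.14 and -0.15 in this order, beside -0.07, 0.01 and 0.03 for all probes. Without control replicate 4 the counts of calls were 4, 4 and 3, where 44.0%, 15.1% and 16.6% of all probes passed.

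The gene cyp17a1 encodes the 17α-hydroxylase that leads from progestogens to androgens. The control fish were at -1.21, -1.35, -1.94 and -1.42, the E2 fish at 0.44, 0.59 and 0.40, and the E2+ICI fish at -0.57, -0.70 and -0.26. As for star the 3 groups did not overlap, beside the same 43.1%, 25% and 42.5% of all probes, but here E2 was highest and control lowest. Set against control it rose by 1.96 with E2 (SE 0.19, adjusted p = 2.2e-05) and by 0.97 with E2+ICI (SE 0.19, adjusted p = 0.00681), and its difference of E2+ICI from E2 was -0.98 (SE 0.20, adjusted p = 0.0229, limma). The rise in E2+ICI against control was not called after quantile normalization (0.34, adjusted p = 0.384) or with equal spread over the arrays (0.44, adjusted p = 0.194). The difference of E2+ICI from E2 was not called without E2 replicate 1, 2 or 3 (-1.02 to -0.93, adjusted p = 0.0811 to 0.0835) or without E2+ICI replicate 1 or 2 (-0.96 and -0.89, adjusted p = 0.0736 and 0.101).

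Also higher in E2 fish was hsd17b1, whose product makes estradiol from estrone in mammals, by 1.03 (SE 0.20, adjusted p = 0.00224, limma). The control fish were at -1.26, -1.07, -0.86 and -0.44, the E2 fish at 0.09, -0.04 and 0.31, and the E2+ICI fish at -0.28, -0.64 and -0.60. Every E2 fish was above every other fish, where 43.1% of all probes did not overlap between E2 and control and 42.5% between E2+ICI and E2. The gene stard3, which encodes a cholesterol transfer protein of endosomes related to star, rose by 0.70 in E2 (SE 0.17, adjusted p = 0.00832), opposite in sign to star. The other synthesis genes with a probe, hsd17b12b (0.30, adjusted p = 0.486) and hsd20b2 (-0.05, adjusted p = 0.834), did not pass.

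**Figure D3:**
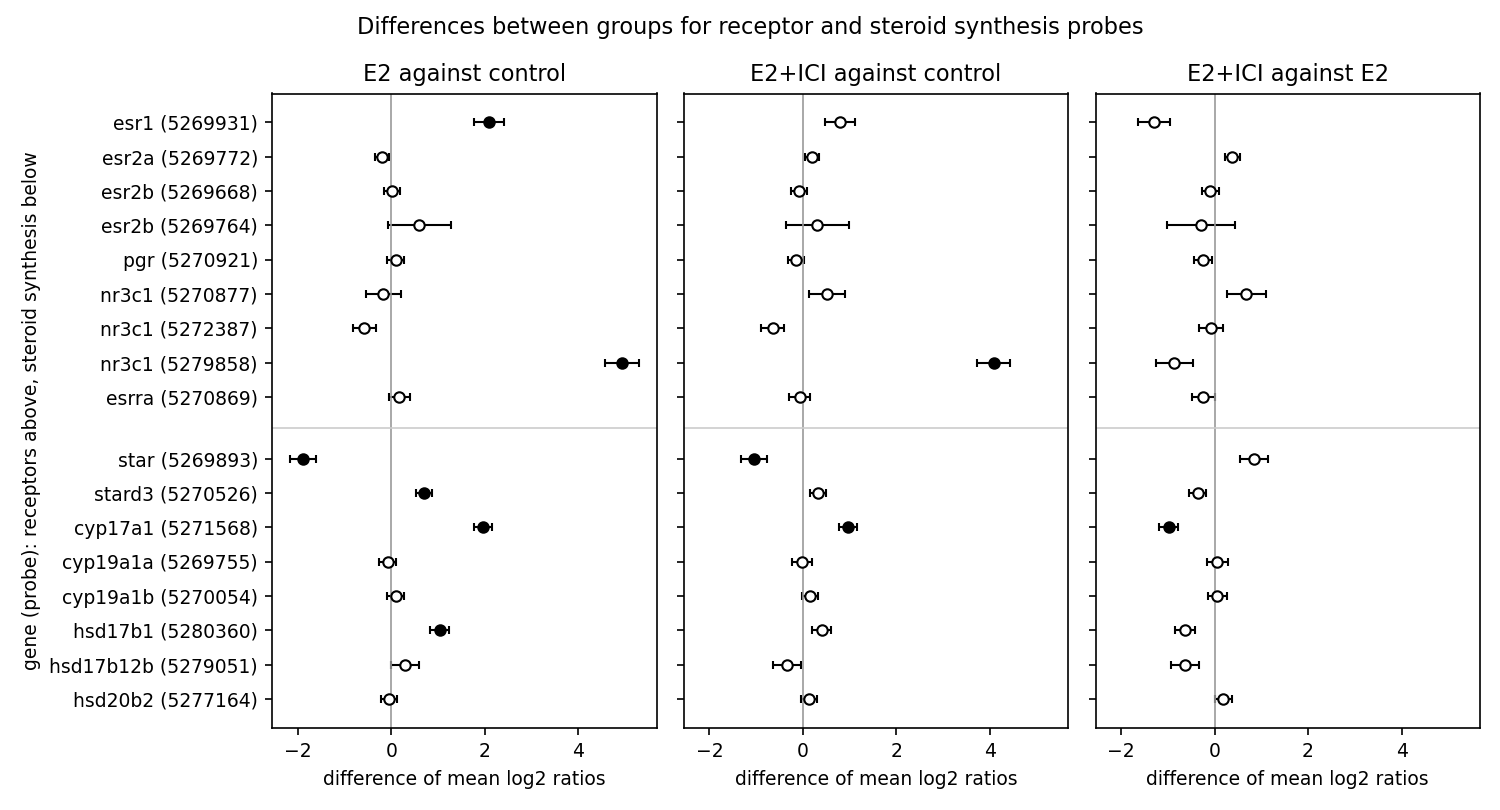
Difference of mean log2 ratios between groups (horizontal axis) for each probe of the receptor genes (above the grey line) and the steroid synthesis genes (below it), in the 3 comparisons; bars are 1 SE, filled circles passed at an adjusted p under 0.05 and open circles did not. In E2 against control esr1 (2.09) and cyp17a1 (1.96) lie to the right and star (-1.89) to the left, and the aromatase probes lie near 0.

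The markers of the cells that make steroids had few probes. Of 10 genes listed for interrenal and Leydig cells 3 had a probe, namely star, cyp17a1 and nr5a1a. The last encodes steroidogenic factor 1, a transcription factor of these cells. It averaged -0.16 ± 0.08 among controls, -0.22 ± 0.09 with E2 and -0.17 ± 0.16 with E2+ICI (n = 2, replicate 3 missing). For nr5a1a, E2 against control gave -0.05 (SE 0.14, adjusted p = 0.793, limma). Its values ran only from -0.31 to -0.06, and without spot intensities a steady level and a signal near background cannot be told apart. These 3 markers thus lay lower, higher and near 0. The levels of testis markers (3 probes) had medians of -0.53 to 0.64 in control and -0.12 to 0.15 in E2 fish. Of the 3 testis probes 1 was higher in E2, beside 19.2% of all probes. The part of these markers in the values of star was not tested.

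Regulators of steroidogenic genes and of sex differentiation had 21 probes for 16 of 39 genes listed. In E2 fish 1 was higher and 4 lower, beside 19.2% and 16.5% of all probes. In E2+ICI fish 1 was higher and 1 lower, beside 8.92% and 3.04%. None passed between E2+ICI and E2, beside 5.42%. The medians were -0.28, -0.05 and 0.22. Those lower in E2 were cebpa, a liver and fat transcription factor (-1.15, adjusted p = 0.00678), inhbaa by probe 5278043 (-0.91, adjusted p = 0.00371), inhbb (-0.67, adjusted p = 0.0139), both of which encode activin subunits, and crema, a cyclic AMP responsive repressor (-0.82, adjusted p = 0.00472, limma). A second inhbaa probe gave -0.27 and did not pass. The probe that was higher, 5270957 of nr5a2, gave 4.46 in E2 (adjusted p = 0.00025) and 2.11 in E2+ICI (adjusted p = 0.049), but both other nr5a2 probes gave -0.30 and -0.06 and did not pass. In E2+ICI fish rspo1, a Wnt pathway activator of ovarian fate in mammals, was lower (-0.98, adjusted p = 0.0383, limma). The E2+ICI calls of this nr5a2 probe and of rspo1 were kept in 10 and 13 of 21 alternatives. Without control replicate 4, 8 of the 21 regulator probes passed for E2, beside 44.0% of all probes.

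Cholesterol supply, which feeds star, was represented by 14 of 42 genes. In E2 fish 1 was higher and 2 lower, beside 19.2% and 16.5% of all probes. The former was fdps of the mevalonate pathway (0.72, adjusted p = 0.0171), and the latter were abca1a, a cholesterol exporter (-1.55, adjusted p = 0.007), and srebf2, the regulator of cholesterol synthesis (-0.58, adjusted p = 0.0118). In E2+ICI against control insig1, which retains the sterol-sensing complex of SREBP in the endoplasmic reticulum, rose by 0.95 (adjusted p = 0.00582) and the lipoprotein gene apoa1a by 1.60 (adjusted p = 0.000787, limma). These and srebf2 were also higher in E2+ICI than in E2, by 0.97, 1.01 and 0.66 (adjusted p = 0.0194, 0.0366 and 0.0413), differences whose calls were kept in 14, 14 and 12 of 21 alternatives. The 2 calls of E2+ICI against control stand beside 8.92% of all probes higher, and the 3 against E2 beside 2.88%. The medians were -0.07, 0.00 and 0.02 beside -0.07, 0.01 and 0.03 for all probes. Liver cells express many of these genes. Of 9 liver marker probes 5 were lower and 1 higher in E2, beside 16.5% and 19.2% of all probes. The median of these 9 per array ran from -0.88 to 0.55 among controls. It ran from -1.26 to -1.11 with E2 and from -0.08 to -0.05 with E2+ICI, and its part was not tested.

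Steroid breakdown and conjugation had 6 probes for 5 of 31 genes. Beside 19.2% and 16.5% of all probes, 1 was higher and 2 lower in E2, and beside 3.04%, 1 was lower in E2+ICI. They were hsd17b8, a dehydrogenase that can inactivate estradiol in mammals (0.83, adjusted p = 0.0022), the steroid sulfotransferase gene sult2st1 (-1.09, adjusted p = 0.00214), and cyp26b1 (-1.22 in E2, adjusted p = 0.000478, and -0.88 in E2+ICI, adjusted p = 0.0105, limma). The product of cyp26b1 breaks down retinoic acid, which is not a steroid, and cyp26b1 was the only call of this list in E2+ICI. Of pituitary and hypothalamic hormones 2 of 27 had a probe, and gnrh3, a gonadotropin-releasing hormone gene, was lower in E2 (-0.42, adjusted p = 0.0495). That call was kept in 6 of 21 alternatives.

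Known estrogen biomarkers, of which esr1 is a member, give a scale for its values. Of 10 listed, 4 had a probe, and 3 were higher with E2 and 2 with E2+ICI, beside 19.2% and 8.92% of all probes. The yolk precursor gene vtg3 was at -6.71, -5.64, -6.47 and -6.96 among controls, at 0.77, 0.86 and 2.01 with E2, and at -0.06, -0.39 and 0.01 with E2+ICI. It rose by 7.66 in E2 (SE 0.35, adjusted p = 3.17e-07) and by 6.30 in E2+ICI (SE 0.35, adjusted p = 4.51e-06). The difference between E2+ICI and E2, -1.36 (adjusted p = 0.0564, limma), was close in size to that of esr1 (-1.29). The E2 change of vtg3 was far larger, however (7.66 against 2.09 for esr1). Its value in E2+ICI replicate 3 (0.01) was the value that this array repeats for many probes. The gene nots, which encodes the liver protease nothepsin, rose by 2.94 (SE 0.27, adjusted p = 1.55e-05) and 2.29 (SE 0.27, adjusted p = 0.000273). The biomarker that did not pass was cyp19a1b.

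Coregulators and chaperones of the estrogen receptor had 25 probes for 22 of 36 genes. In E2 fish 2 were higher and 5 lower, beside 19.2% and 16.5% of all probes. In E2+ICI fish 1 was higher and 1 lower, beside 8.92% and 3.04%. None passed between E2+ICI and E2, beside 5.42%. The medians were -0.02, -0.06 and 0.03. The co-chaperone gene stip1 rose by 1.60 in E2 (adjusted p = 8.41e-05) and 0.91 in E2+ICI fish (adjusted p = 0.00979), and fkbp4, an immunophilin of receptor complexes, by 0.67 in E2 (adjusted p = 0.0362). Of the chaperone hsp90aa1.1, probe 5269815 was lower in E2 (-1.49, adjusted p = 0.00663) and the other gave -0.46 and did not pass. The pioneer factor genes foxa1 (-0.78, adjusted p = 0.00764), foxa2 (-0.64, adjusted p = 0.0417) and foxa3 (-1.39, adjusted p = 0.000517, limma) were lower in E2, and foxa3 in E2+ICI as well (-0.82, adjusted p = 0.029). The coactivator gene ncoa5 was lower by probe 5282693 (-0.52, adjusted p = 0.0139), and its other probe gave -0.53 and did not pass. The calls of foxa2 and fkbp4 were each kept in 10 of 21 alternatives, and without control replicate 4, 11 of the 25 passed for E2, beside 44.0% of all probes.

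Among 5284 probes with a single symbol and a value in every fish, those whose values over the 10 arrays were most like esr1 belonged to nsd2, a histone methyltransferase gene (Pearson r = 0.983), prr36a (0.982), nkain1 (0.982), kop (0.979) and sinhcafl (0.978). Those most like star belonged to bace1, the beta-secretase gene (0.990), the homeobox gene irx3a (0.979), rasgrp4 (0.978), sdcbp2 (0.977) and the transporter gene abcb5 (0.976). The points share the 3 groups and the spread of their arrays, and the correlations are a description only. Since likeness was taken over the same arrays, a shared E2 difference follows from the choice and was not tested. The log2 differences in E2 were 1.22 to 2.71 for the probes like esr1 and -1.55 to -0.81 for those like star.

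**Figure D4:**
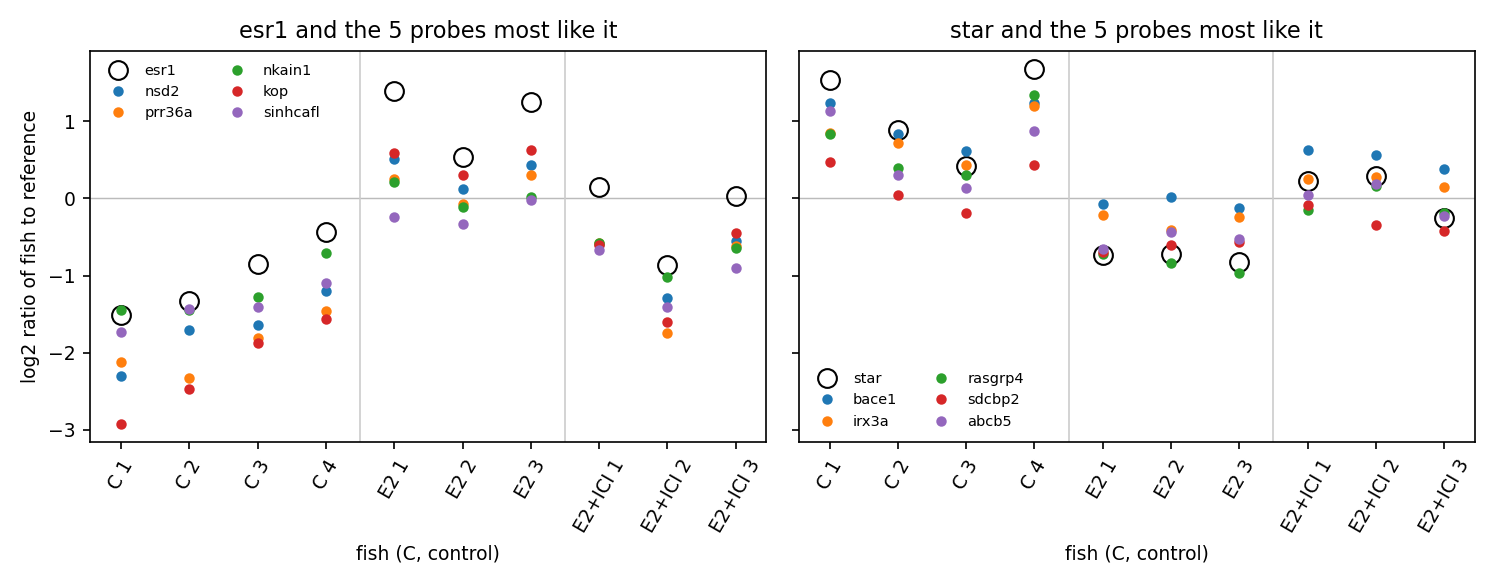
Log2 ratio of fish to reference (vertical axis) in each of the 10 fish (horizontal axis) for esr1 (left) and star (right), as open circles, and for the 5 probes most like each, as filled points. E2+ICI replicate 2 is the lowest of its group for esr1 (-0.86) and for each gene like it, and the 3 E2 fish are the lowest for star. The probes were chosen by likeness over these same fish, so that shared high and low fish were favoured by the choice.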

How the data were processed

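Compugen oligonucleotide arrays were hybridized with RNA of 10 single fish, whole adult males. The deposited values are log2 ratios of fish to reference, for which the authors took GenePix intensities less local background, ran Lowess normalization within each array and kept arrays that looked good in scatter plots. The log2 ratios before Lowess were deposited too. Versions of the scanning and Lowess software are not given in the sources used here. The precision follows from how many arrays there are and from the spread between fish, and no intensities were used here. The annotation names 1 gene for 6088 of the 16416 probes, several for 75 and none for 10253. Probes with several symbols were not named.

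A single limma fit (version 3.58.1, R 4.3.3) took in the 10 arrays, for the 16208 probes that missed no more than 6 values and had 2 or more in every group, with two-sided tests adjusted over all probes. The 3 comparisons share arrays. For the genes with a missing value the fit used the remaining fish. Alternatives were quantile normalization, medians at 0, equal spread, values before Lowess, array weights, a robust prior, complete probes, no filter, repeated values set to missing, fits of 2 groups alone, a replicate block, SAM (re-coded in Python 3.11.15, numpy 2.4.6) and leaving out each array. Both tests were first tried on simulated data with the same spread in all groups. That trial did not cover the wider spread of the control arrays. The genes, the lists and the tests were chosen with earlier results of these data known. All probes of the 4 genes are given. From each pathway list every member was counted, and those that passed in at least 1 comparison are named, together with esr2a, esr2b, pgr, cyp17a1, vtg3, nots and nr5a1a whatever their values; each of esr1 and star also has the 5 most correlated probes. Muscle markers (10 probes) were counted too, with 1 higher and 0 lower in E2 fish, beside 19.2% and 16.5% of all probes. Quantitative PCR was not analysed here. Sequences and coordinates were not used here.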

Additional observations from a re-analysis of the deposited data

Results flagged for a closer look

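In groups of 4 to 10 fish, which here means the controls, a fish was singled out when its gap to the nearest other fish took an unusually large share of the group's range (Dixon's test). Chance singles out about 1 in 20 groups, and 9 of the 131 probes checked were singled out, none of them a probe of esr1, star, cyp19a1a or cyp19a1b. All 9 were in control replicate 4. Among receptor probes, nr3c1 (5270877) stood at -1.65 there and at 0.04 to 0.33 in the other controls, and esrra, the estrogen-related receptor gene, at -0.76 against -0.14 to -0.05. The detoxification gene cyp1a (5270094) stood at -2.57 against -1.18 to -0.92. Among coregulators and chaperones, ncoa5 (5275141) stood at 1.02 against 0.25 to 0.30, ncoa6 at 0.31 against -0.17 to -0.10, hsp90ab1 at -2.49 against -0.25 to 0.16 (5269569) and at -4.41 against -0.35 to 0.30 (5270965). The complement gene c3a.1, a liver marker, stood at -4.83 against 0.80 to 1.37, and fabp7a, a radial glia marker, at -0.36 against -1.08 to -0.99. The values of esr1 (-0.43) and star (1.68) in this fish were the highest of the controls.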

How the results depend on the processing

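For esr1 and star, E2 against control kept its direction and its call in 22 of 22 alternatives each, with an adjusted p or q of 4.71e-06 to 0.0149 and of 2.18e-05 to 0.0152, and differences of 1.92 to 2.35 and -2.13 to -1.70 when 1 fish was left out. Before Lowess the difference of esr1 was 2.79 in E2 (adjusted p = 0.000287) and 1.27 in E2+ICI against control (0.0711), and that of star in E2 -2.18 (0.000926). The comparisons with E2+ICI were less stable. Where a setting moved a value or call the cause was not tested. For esr1, E2+ICI against control was called with array weights (1.2, adjusted p = 0.00275) and with the replicate block (1.00, 0.0168), and ran from 0.61 to 1.11 without 1 fish. For esr1, E2+ICI against E2 was called after quantile normalization (-1.49, 0.00653), with equal spread (-1.50, 0.00784), array weights (-1.14, 0.0045), complete probes (-1.29, 0.0493), only the 2 groups (-1.29, 0.0134) and the replicate block (-1.29, 0.0101), and ran from -1.55 to -0.97 without 1 fish. It was not called before Lowess (-1.52, adjusted p = 0.0788, limma). For star, E2+ICI against control was not called after quantile normalization (-0.81, 0.0706), with equal spread (-0.73, 0.0677), only the 2 groups (-1.05, 0.0882) or SAM (-1.05, q = 0.0689), and ran from -1.28 to -0.86. For star, E2+ICI against E2 was called after quantile normalization (1.1, 0.0113), with equal spread (1.02, 0.00993), array weights (0.80, 0.0139), only the 2 groups (0.84, 0.00927) and the replicate block (0.84, 0.0276), and ran from 0.74 to 1.02. The sign of cyp19a1a turned for E2+ICI against control before Lowess (0.10) and with array weights (0.07), and for E2+ICI against E2 with the replicate block (-0.02). Without 1 fish its differences ran from -0.23 to 0.03 for E2 against control, from -0.23 to 0.19 for E2+ICI against control and from -0.15 to 0.27 for E2+ICI against E2, and those of cyp19a1b for E2+ICI against E2 from -0.04 to 0.15. The difference of esr2b by probe 5269668 in E2 against control was -0.15 after quantile normalization and with equal spread, 0.00 with medians at 0, -0.12 with array weights and -0.11 with the replicate block, and that by probe 5269764 was 0.00 with the replicate block. Without 1 fish they ran from -0.11 to 0.09 and from 0.00 to 1.22, and that of pgr from -0.02 to 0.20.

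Over all probes, E2+ICI against control gave 1939 calls, and 1026 after quantile normalization (552 higher and 474 lower, where the main split was 1446 and 493), 1074 with equal spread, 3631 with array weights, 1214 with only the 2 groups, 1130 by SAM, and 896 to 2440 without 1 fish. E2+ICI against E2 gave 879 calls, and 3930, 3833, 3846 and 3314 with the first 4 of these settings, 386 before Lowess (145 higher and 241 lower), 2090 with the replicate block and 143 to 2695 without 1 fish (2695 without control replicate 4). The difference among the 3 groups gave 4867 calls and 7358 with array weights. Where a group was left with few values, the fish left was assumed to vary like the other groups. SAM gave no probe a q under 0.05 for E2+ICI against E2, where 20 permutations are possible, and complete probes leave out both aromatase genes. Replicate numbers are shared by the groups, but fish with the same number did not deviate together (correlations of -0.23 to 0.18), so that the pairing rests on a number only.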
